A study of Mus musculus with 24 samples.

Results

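Malat1 and Neat1 are 2 long noncoding RNAs that stay in the nucleus, and they are described here in alpha and beta cells of the mouse pancreatic islet. They were taken by symbol and are 2 of the 14027 genes in the deposited table. Alpha cells secrete glucagon and beta cells secrete insulin. They were obtained from mice of a triple reporter strain, with islets taken at 6 times of the light cycle, counted in hours of zeitgeber time (ZT), namely every 4 h from ZT0 to ZT20. With 2 libraries per cell type and time there were 12 alpha and 12 beta libraries. The sources used here do not give the promoters that drive the reporters, nor the age and sex of the animals. Nothing in the labels tells whether both libraries of a group are from different animals, so a p-value speaks for the spread among these libraries alone, and that spread may be technical.

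Malat1 collects in nuclear speckles, which store splicing factors and the kinases that act on them. Neat1 is the scaffold of paraspeckles, nuclear bodies that hold RNA-binding proteins and some RNAs. Neat1 is made as a short polyadenylated RNA and as a long RNA from the same start, and the long RNA builds the body. Malat1 and the long Neat1 RNA carry no poly(A) tail; RNase P cuts them, and a triple helix of U-rich and A-rich stretches protects the new end. The libraries were made from total RNA after removal of ribosomal RNA, so RNAs without a poly(A) tail could be counted.

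The 2 genes are neighbours on the minus strand of chromosome 19. By GENCODE coordinates on GRCm38 (mm10), Malat1 spans chr19:5795690-5802672 (6983 bases) and Neat1 spans chr19:5824708-5845478 (20771 bases), with 22035 bases between them. Both are annotated as lincRNA. The gene length behind the deposited values, recovered from the table, was 6983 bases for Malat1 and 20771 bases for Neat1. The Neat1 row therefore holds the short and the long RNA together, and they cannot be told apart here. The strand setting of the counting is not given, so reads of Malat1 and of Gm37376, an annotated gene on the opposite strand inside it, could have been joined.

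The ends of the 2 RNAs are shown because the triple-helix element is what they share and what sets the long Neat1 RNA apart from the short one. The 3 runs of capitals in each element mark, in order, the first U-rich motif, the second U-rich motif and the A-rich tract. Each marks a stretch with the same letters in both RNAs. The capitals in the short RNA are the polyadenylation signal. The sequences are GENCODE transcripts, written 5′ to 3′ with T for U. They are the Malat1 element at chr19:5795982-5796065, the end of the long Neat1 transcript at chr19:5824708-5824797 and the end of the short Neat1 transcript at chr19:5842307-5842366.
Malat1: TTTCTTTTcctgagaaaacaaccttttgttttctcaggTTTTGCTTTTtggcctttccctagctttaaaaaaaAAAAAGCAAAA
Neat1 long: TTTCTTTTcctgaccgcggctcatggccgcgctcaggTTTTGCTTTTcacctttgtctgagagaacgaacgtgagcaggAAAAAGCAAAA
Neat1 short: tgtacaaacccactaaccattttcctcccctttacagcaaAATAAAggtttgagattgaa
Between the U-rich motifs lie 30 bases in Malat1 and 29 in Neat1, and between the second motif and the capitals of the A-rich tract lie 25 and 32. In Malat1 the run of A begins before the capitals, so the tract itself starts nearer to the second motif. The Neat1 element ends at the last base of the annotated transcript, whereas 292 annotated bases follow the Malat1 element. Of 55341 genes with an annotated transcript (141767 transcripts), only Malat1 and Neat1 held the 3 motifs, with the letters given in capitals, in this order within 150 bases on the transcript's strand, which is 0.00361% of the genes. The letters searched are those of these 2 RNAs, so both had to match. A similar element with other letters would have been missed, so the search does not show that the element is limited to them.

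The deposited values were log2 RPKM (reads scaled for gene length and for library size, in reads per kilobase and per megaread), and whole reads could be recovered from them. Libraries held 4944982 to 12364190 reads. Glucagon (Gcg) took 16% to 24.2% of the reads in alpha libraries, and insulin (Ins1 and Ins2) took 16.4% to 26.0% in beta libraries. The summed level of 6 alpha markers was 101247 to 176732 RPKM in alpha libraries and 561 to 2470.1 RPKM in beta libraries, and that of 7 beta markers was 414 to 5210.4 RPKM in alpha libraries and 188793 to 350916 RPKM in beta libraries. The libraries therefore carried the markers of their labelled cell type. Markers of another islet cell, the PP cell (Ppy, Pyy, Sertm1), also summed to 27826 to 59539.6 RPKM in alpha libraries and 359 to 1729.9 RPKM in beta libraries.

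Malat1 was among the most abundant RNAs per length in both cell types, and Neat1 was far lower, near the middle of the table in alpha cells and in its upper part in beta cells. Malat1 ranked 11 of 14027 in alpha cells, at 2061 ± 680.3 RPKM, and 12 in beta cells, at 1402 ± 631 RPKM (SD, n = 12 each). It took 1.56% ± 0.575 of the reads in alpha libraries and 0.938% ± 0.460 in beta libraries. Neat1 averaged 4.59 ± 2.82 RPKM in alpha cells, where 57.3% of the genes were higher, and 12.7 ± 9.24 RPKM in beta cells, where 27.8% were higher. The Neat1 level rested on 171 to 2236 reads in an alpha library and 463 to 5755 in a beta library, that of Malat1 on at least 39770 reads in every library. The RPKM of Neat1 is taken over 20771 bases, whereas the short transcript has 3004, so it understates the short RNA. The share of each form is not known here, which limits the Neat1 levels and the ratio to Malat1 given below.

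Among the other long or structural noncoding RNAs, the 5 with the highest mean level framed these values. Rn7sk, the RNA that holds the elongation factor P-TEFb inactive, was at 26238 ± 6666 RPKM in alpha cells, against 48687 ± 14002 RPKM in beta cells. Rpph1, the RNA of RNase P, was at 11051 ± 2727 RPKM in alpha cells, against 16353 ± 4131 RPKM in beta cells. Both stood above Malat1 in each cell type. Rmrp, the RNA of RNase MRP, was at 1579.8 ± 414 RPKM in alpha cells, against 6351 ± 1672 RPKM in beta cells. In alpha cells the ranges of Malat1 (1046 to 3158 RPKM) and Rmrp (816 to 2309.6 RPKM) overlapped, so their order was within the spread, while in beta cells Rmrp lay above every Malat1 value. Rian, from the imprinted Dlk1-Dio3 region, was at 55.4 ± 12.9 RPKM in alpha cells, against 49.3 ± 10.9 RPKM in beta cells, and Snhg3, a snoRNA host gene, at 25.8 ± 3.36 RPKM in alpha cells, against 58.0 ± 13.2 RPKM in beta cells (SD, n = 12 each). Neat1 was below both of these in each cell type, and even in beta cells its highest value, 27.6 RPKM, was under the lowest Snhg3 value, 28.9 RPKM.

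The cell types differed in opposite directions for the neighbouring genes: Malat1 was higher in alpha and Neat1 was higher in beta cells. Malat1 had a lowest, median and highest value of 1046, 2034 and 3158 RPKM in alpha libraries, against 624, 1171 and 2468 RPKM in beta libraries. Neat1 had 0.845, 3.66 and 8.73 RPKM in alpha libraries, against 2.44, 8.95 and 27.6 RPKM in beta libraries. Over all times the groups overlapped for both RNAs. The fit with time as a factor gave a log2 difference (alpha minus beta) of 0.62 (SE 0.160) for Malat1, which was 1.54-fold higher in alpha cells, with an adjusted p of 0.0014 by limma with Benjamini-Hochberg adjustment over all genes. For Neat1 it gave -1.35 (SE 0.305), 2.55-fold higher in beta cells, with a limma adjusted p of 5.3e-04. The two-sided exact permutation test within times gave p = 0.0022 for Malat1 and 0.0011 for Neat1.

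These calls have to be read against a table in which most genes differed. At an adjusted p under 0.05, 37.8% of all genes were called higher in alpha and 37.2% higher in beta cells, 74.9% in all. A fold of at least 2 beside the call, which Neat1 passed and Malat1 did not, held for 20.7% of genes, 11.2% on the alpha side and 9.54% on the beta side. With library totals taken without the hormone genes and without Malat1 and Neat1, the median of all genes moved by 0.17 (log2) towards alpha cells, and the calls split into 63.8% higher in alpha and 36.2% higher in beta cells, against 50.4% and 49.6% with the deposited scaling. The difference was then 0.79 for Malat1 and -1.18 for Neat1, both still called. In bulk libraries, fewer cells of a type and less RNA per cell cannot be told apart.

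The opposite directions held at each of the 6 times. The mean log2 difference (alpha minus beta) of Malat1 lay between 0.37 at ZT16 and 0.87 at ZT4, and the 2 alpha libraries lay above the 2 beta libraries at ZT12, ZT16 and ZT20. That of Neat1 lay between -1.06 at ZT4 and -1.67 at ZT16, and the 2 alpha libraries lay below the 2 beta libraries at ZT8, ZT12, ZT16 and ZT20. At the remaining times the values of the 2 cell types overlapped. The share of all genes that separate 2 against 2 libraries at a time was not computed. With 74.9% of all genes called different over all times, such separation is not particular to these RNAs.

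The ratio of the 2 RNAs in a library does not depend on the scaling between libraries, and it separated the cell types completely. Per length, Malat1 exceeded Neat1 by a factor with a lowest, median and highest value of 304, 505 and 1238 in alpha libraries, against 79.9, 144 and 255 in beta libraries. No alpha library was as low as any beta library. The mean log2 ratio was 9.04 ± 0.60 in alpha and 7.07 ± 0.56 in beta cells (SD, n = 12 each), a difference of 1.97 or 3.92-fold. The two-sided exact permutation test within times gave p = 4.3e-05, the smallest it can give. Among single genes, 26.0% of the table had no overlap between the 12 alpha and the 12 beta libraries.

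**Figure D1:**
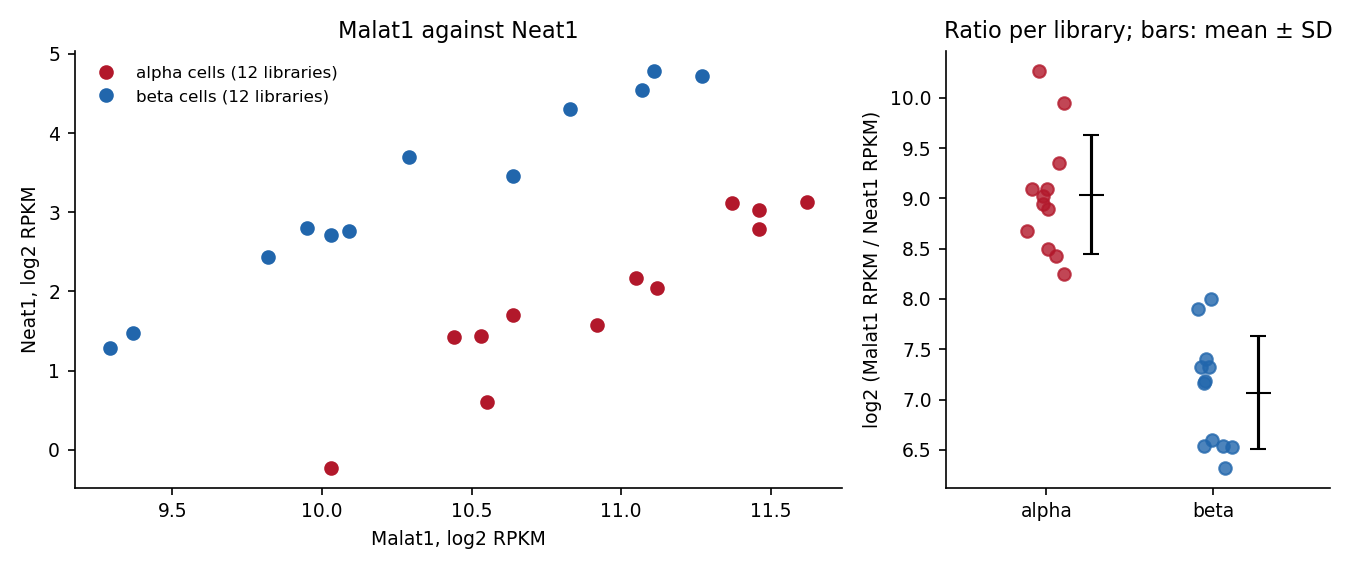
Left, log2 RPKM of Malat1 (x axis) against log2 RPKM of Neat1 (y axis) in each of the 12 alpha (red) and 12 beta (blue) libraries. Right, the log2 ratio of Malat1 to Neat1 per library in alpha and beta cells, with the mean and SD beside the points; the alpha libraries lie from 8.25 to 10.27 and the beta libraries from 6.32 to 8.0.

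Over the day both RNAs were lowest at ZT8 and highest at ZT16 in mean level, in both cell types. Malat1 averaged 2058, 1864, 1216, 1768, 2989 and 2469.6 RPKM at ZT0, ZT4, ZT8, ZT12, ZT16 and ZT20 in alpha cells (n = 2 each). In beta cells it averaged 1555, 1109, 856, 1039, 2312 and 1539.8 RPKM at the same times. The lowest and the highest time were thus shared, with the beta means below the alpha means throughout. Neat1 averaged 5.70, 2.80, 1.76, 3.11, 7.81 and 6.33 RPKM from ZT0 to ZT20 in alpha cells. In beta cells it averaged 16.5, 6.71, 4.66, 6.88, 24.8 and 16.4 RPKM. Between its lowest and its highest mean, Neat1 differed by a larger factor than Malat1 in each cell type.

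The single libraries show how far the 2 times at the extremes lay apart. At ZT8 the 2 alpha libraries had 1046 and 1386 RPKM of Malat1 and the 2 beta libraries 663 and 1049 RPKM. At ZT16 the alpha libraries had 3158 and 2819 RPKM and the beta libraries 2468 and 2157 RPKM. The ZT8 and ZT16 libraries of a cell type did not overlap. For Neat1 the ZT8 libraries had 0.845 and 2.68 RPKM in alpha cells, against 2.77 and 6.55 RPKM in beta cells. The ZT16 libraries had 8.73 and 6.89 RPKM in alpha cells, against 26.4 and 23.3 RPKM in beta cells, again without overlap. These 2 times were picked for their means in the same libraries, so the lack of overlap is no test. In beta cells a ZT4 library was lower than both ZT8 libraries, with 624 RPKM of Malat1 and 2.44 RPKM of Neat1. The highest Neat1 value of the beta cells, 27.6 RPKM, was in a ZT0 library.

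**Figure D2:**
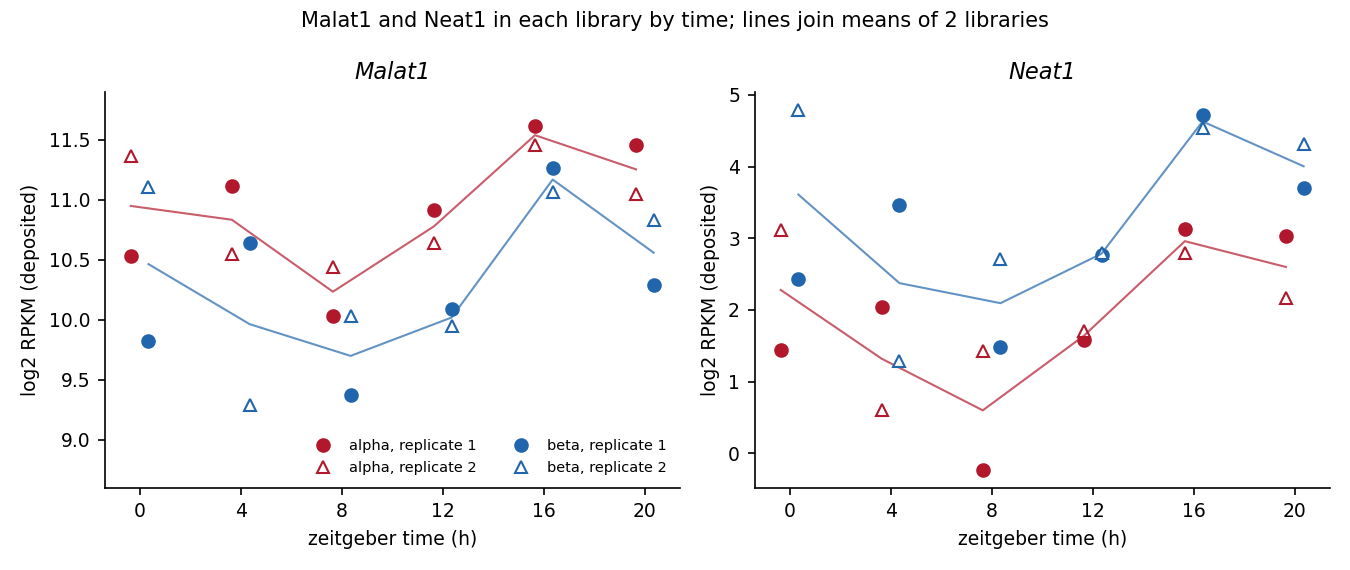
Deposited log2 RPKM (y axis) of Malat1 (left) and Neat1 (right) by zeitgeber time in hours (x axis), with each library as a point, alpha cells in red and beta cells in blue, replicate 1 filled and replicate 2 open. Lines join the means of the 2 libraries of a time, which run from a low at ZT8 to a high at ZT16, and libraries of one time stand far apart at ZT0 and ZT4.

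A 24 h cosine fitted in each cell type placed the peaks of both RNAs within 0.4 h of each other, between ZT18.6 and ZT19.0, but only Neat1 in beta cells passed the limma F-test. In beta cells Neat1 had a range between peak and trough of 2.44 on the log2 scale (SE 0.620), or 5.43-fold, with the peak at ZT18.7 ± 1.0 (SE) and a limma adjusted p of 0.030. In alpha cells its range was 2.17 (SE 0.620), or 4.51-fold, with the peak at ZT19.0 ± 1.1 and a limma adjusted p of 0.066. The range of Malat1 was 1.02 (SE 0.352), or 2.03-fold, in alpha cells, with the peak at ZT18.8 ± 1.3 and a limma adjusted p of 0.12. In beta cells it was 1.21 (SE 0.352), or 2.31-fold, with the peak at ZT18.6 ± 1.1 and a limma adjusted p of 0.052. Of all genes, 9.66% were called rhythmic in alpha and 16% in beta cells, so a single call is within what the table held. The rhythm of neither RNA was found to differ between the cell types (limma adjusted p 1.0 for each, with 0.0713% of all genes called), and a p of this kind does not show that the rhythms were alike.

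The rhythm calls rested on single libraries. Neat1 in beta cells was no longer called without replicate 2 of ZT4 (limma adjusted p 0.079), replicate 1 of ZT8 (0.090), replicate 1 of ZT16 (0.079), replicate 2 of ZT16 (0.078) or replicate 2 of ZT20 (0.056), all of them beta libraries. Malat1 in beta cells was called when replicate 1 of beta ZT4 (limma adjusted p 0.016), replicate 1 of beta ZT20 (0.025), replicate 2 or 1 of beta ZT0 (0.033 and 0.035), replicate 1 of alpha ZT4 (0.043) or replicate 1 of alpha ZT0 (0.046) was left out. Neat1 in alpha cells was called without replicate 1 of alpha ZT4 (limma adjusted p 0.037) or replicate 2 of beta ZT0 (0.041). With time as 6 levels in place of a cosine, none of the 4 passed (limma adjusted p 0.19 to 0.35; Neat1 in beta cells 0.22), although the unadjusted p of Malat1 in beta cells was 0.049.

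The 2 libraries of a time differed most at ZT0 and ZT4, for Neat1 also at ZT8, and little at ZT12 and ZT16. For Neat1 in alpha cells the fold between the 2 libraries of a time was 3.20, 2.70, 3.15, 1.09, 1.27 and 1.82 from ZT0 to ZT20. In beta cells it was 5.14, 4.48, 2.36, 1.02, 1.14 and 1.53. In beta cells the gap at ZT0 thus came close to the fitted range over the day, 5.43-fold. For Malat1 in alpha cells the fold was 1.79, 1.49, 1.32, 1.22, 1.12 and 1.32 at these times, and in beta cells it was 2.44, 2.55, 1.58, 1.10, 1.14 and 1.45. At ZT0, Neat1 had 2.71 and 8.70 RPKM in the 2 alpha libraries and 5.36 and 27.6 RPKM in the 2 beta libraries. At ZT4 it had 4.09 and 1.51 RPKM in the alpha libraries and 11.0 and 2.44 RPKM in the beta libraries. The lowest Malat1 value and the lowest Neat1 value of the beta cells were in the same ZT4 library.

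The within-time SD, on the log2 scale and pooled over the 6 times, was 0.350 in alpha and 0.597 in beta cells for Malat1, larger than that of 82.0% of all genes in alpha and 93.8% in beta cells. For Neat1 it was 0.840 in alpha and 1.01 in beta cells, larger than that of 98.5% and 99.2% of genes. The median gene had 0.190 in alpha and 0.214 in beta cells, so Neat1 was among the genes that varied most between libraries of one time. The spread of alpha and beta cells was not separated by the exact two-sided permutation test of the 6 absolute differences in each, with p = 0.32 for Malat1 and p = 0.86 for Neat1. The mean absolute log2 difference was 0.25 smaller in alpha than in beta cells for Malat1 and 0.08 smaller for Neat1. The test did not match the differences by time, so the change of spread over the day stayed in it. Its p therefore does not show that the spreads were alike.

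**Figure D3:**
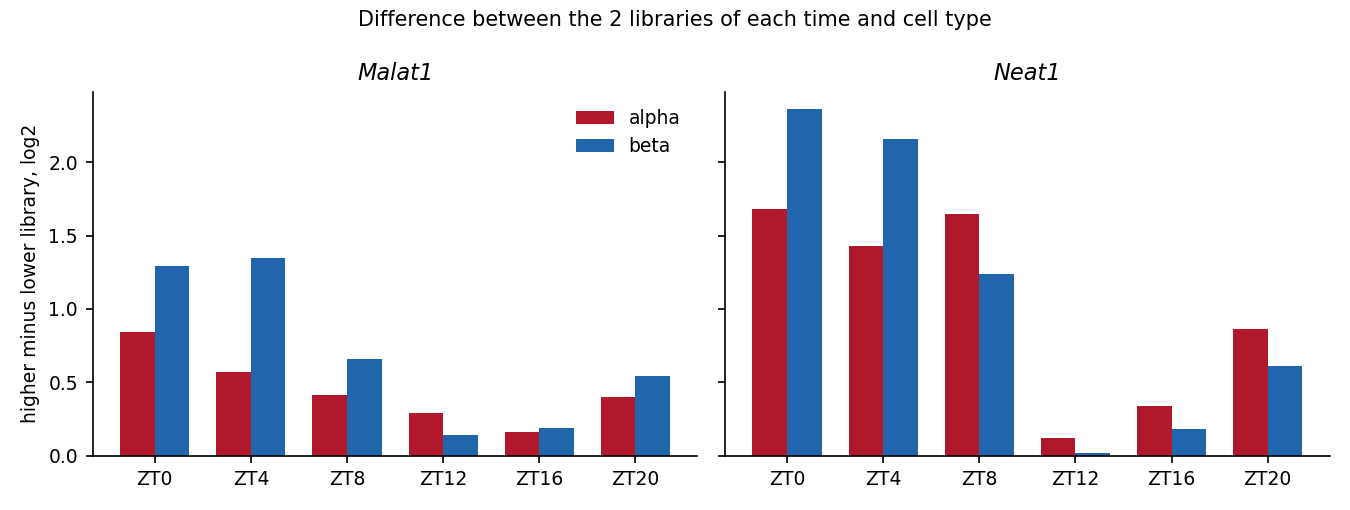
Absolute log2 difference (y axis) between the 2 libraries of each zeitgeber time (x axis) for Malat1 (left) and Neat1 (right), alpha cells in red and beta cells in blue. The bars are tall at ZT0 and ZT4, up to 2.36 for Neat1 in beta cells, and for Neat1 also at ZT8, and they are under 0.4 at ZT12 and ZT16.

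Malat1 and Neat1 rose and fell together across the libraries of each cell type. Pearson's r between their log2 levels was 0.945 in alpha cells (Spearman's rho 0.937) and 0.983 in beta cells (rho 0.965), over 12 libraries each. The permutation p was 1.0e-05 for each r, the smallest that 100000 permutations can give, and 1.6e-04 after adjustment over 56 relations. The permutation p of rho was 3.0e-05 in alpha and 2.0e-05 in beta cells (adjusted 2.4e-04 and 2.2e-04). Without the 2 libraries farthest from the median of Malat1, r was 0.903 in alpha and 0.978 in beta cells. Taken as deviations from the mean of each time, which removes the time of day, r was 0.926 in alpha and 0.990 in beta cells. These r were close to those over all libraries. The exact sign-flip p of these 6 deviations was 0.062 in each cell type, where the design allows 0.031 at the least.

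Other properties of the libraries moved with the 2 RNAs. The share of reads taken by the cell's own hormone fell as they rose: r with Malat1 was -0.954 in alpha and -0.957 in beta cells, and r with Neat1 was -0.885 in alpha and -0.930 in beta cells (adjusted permutation p at most 3.6e-04). Spearman's rho for these 4 relations lay between -0.958 and -0.930 (adjusted permutation p at most 3.1e-04), r without the 2 farthest libraries between -0.934 and -0.889, and r within times between -0.958 and -0.893. The authors' scaling factor of a library ran with them, with r of 0.874 in alpha and 0.882 in beta cells for Malat1 and 0.866 and 0.844 for Neat1 (adjusted permutation p at most 0.0020). For the scaling factor rho was 0.846 to 0.923 (adjusted permutation p at most 0.0026), r without the 2 farthest libraries 0.751 to 0.856, and r within times 0.833 to 0.973. The part of the hormone share and of the scaling factor in the covariation was not tested. The total number of reads did not pass the test (r from -0.465 to 0.00838, adjusted permutation p at least 0.19). With totals taken without the hormone genes and the 2 RNAs themselves, the correlation of Malat1 with Neat1 was 0.952 in alpha and 0.983 in beta cells, as large as with the deposited scaling.

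Markers of other cell types gave a mixed picture. Duct markers (Spp1 and Muc1, 25.6 to 78.6 RPKM in alpha cells, against 5.03 to 19.2 RPKM in beta libraries) fell as the 2 RNAs rose, with r from -0.897 to -0.749, and 4 endothelial markers (3.87 to 7.42 RPKM in alpha cells, against 2.15 to 4.03 RPKM in beta libraries) with r from -0.901 to -0.690. Within times r was -0.694 to -0.588 for duct and -0.805 to -0.178 for endothelial markers, the last with -0.178 and -0.188 in beta cells. Spearman's rho was negative in all of these and missed the adjusted permutation test for endothelial markers in beta cells (adjusted p 0.091 for Malat1, 0.057 for Neat1). No measured marker of any of these lists was without reads in a whole group. PP markers fell with them in alpha cells, with r of -0.899 for Malat1 and -0.938 for Neat1, and not in beta cells (r 0.158 and 0.0509). For acinar, immune, stromal and delta markers no r passed the adjusted permutation test. The part of these cells in the results on Malat1 and Neat1 was not tested.

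Genes whose levels ran most closely with Malat1 in alpha cells were Syvn1, a ubiquitin ligase of the endoplasmic reticulum (r = 0.988 over 12 libraries), Cspp1, a centrosome and spindle protein (0.981), Xkr6 (0.980), Trim26 (0.980) and Unc13b, which primes secretory vesicles (0.976). In beta cells they were Zc3h11a and Zbed6 (0.994 each), the splicing regulator Srek1 (0.993), Eml5 (0.991) and the small Maf protein gene Mafg (0.983). Zbed6 lies within Zc3h11a, so their reads cannot be told apart. Among the genes that ran most strongly against Malat1 were Eid1 (-0.978), the lysosomal cholesterol carrier gene Npc2 (-0.978) and Pcbd1 (-0.977) in alpha cells, and the Golgi transporter gene Slc35a3 and the peroxisomal import gene Pex19 (-0.983 each) in beta cells. In both cell types at once, ranked by the lower r, Malat1 ran most closely with Cspp1 (0.981 in alpha, 0.983 in beta), Smg1, a kinase of nonsense-mediated decay (0.970 and 0.973), the chromatin remodeller Chd7 (0.971 and 0.970), Arhgap39 (0.967 and 0.970) and Cdk12, a kinase of transcription elongation (0.974 and 0.966).

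Neat1 ran most closely in alpha cells with Zfc3h1, which links nuclear RNAs to the exosome (0.982), Prdm15 (0.982), Ttll4, which adds glutamates to tubulin (0.977), Gba2 (0.976) and the dynamin gene Dnm2 (0.975). In beta cells it ran with Srek1 (0.991), the imprinted long noncoding RNA Meg3 (0.987), Eml5 (0.986), Ttll4 (0.985) and Safb2 (0.984). Srek1 and Eml5 were thus among the 5 closest genes of both RNAs in beta cells. Against Neat1 ran the lysosomal protease gene Ctsd (-0.977), Ccpg1 (-0.977) and the lysosomal membrane protein gene Scarb2 (-0.975) in alpha cells, and the fucosidase gene Fuca2 (-0.980), the syndecan gene Sdc4 (-0.980) and Prps2 (-0.977) in beta cells. Over both cell types, by the lower r, the closest were Ttll4 (0.977 in alpha, 0.985 in beta), Pitpnm1 (0.971 and 0.983), Meg3 (0.969 and 0.987), Cspp1 (0.967 and 0.975) and Sap25 (0.971 and 0.964). These r are descriptions without a test: the libraries share their scaling, and the genes were chosen for the value.

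Sets of genes ran closely with or against the 2 RNAs. With Malat1, r was at least 0.9 for 469 genes in alpha cells, which is 3.92% of those with a mean log2 RPKM above 0, and for 531 genes in beta cells (4.54%). With Neat1, 376 genes in alpha cells (3.14%) and 509 in beta cells (4.35%) reached it. An r of -0.9 or lower with Malat1 was found for 461 genes in alpha (3.85%) and 529 in beta cells (4.53%). With Neat1 it was found for 313 (2.61%) and 506 (4.33%). Among genes that could be ranked in both cell types, 220 had an r of at least 0.9 with Malat1 in both, 49.4% of the alpha set and 42.1% of the beta set, and 177 with Neat1, 49.6% of the alpha set and 35.5% of the beta set. Genes running with Malat1 had long gene models, with a median of 6755 bases in alpha and 6478 in beta cells, those running against it (r of -0.9 or lower) had a median of 2690.0 bases in each, and all ranked genes had 3721 in alpha and 3704 in beta cells. For Neat1 the medians were 5666 and 6390.0 bases for genes running with it and 2928 and 2910.0 for genes running against it. In each case the genes running with the RNA had longer models than those running against it.

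Among the 10 core paraspeckle proteins, 9 were higher in alpha cells by limma, against 0 in beta cells (0 also at an unadjusted p under 0.05), while their scaffold Neat1 was lower in alpha cells. The share of all genes higher in alpha cells was 37.8%, and the median log2 difference (alpha minus beta) was 0.34 for the list and 0.01 for all genes. Leaving out 1 library gave 7 to 9 such genes. Hnrnph3, an RNA-binding protein needed for paraspeckles, had 12 ± 1.64 RPKM in alpha cells, against 7.39 ± 1.28 RPKM in beta cells (1.62-fold, limma adjusted p 8.1e-09). Tardbp, which binds UG-rich RNA, had 17.3 ± 2.90 RPKM in alpha cells, against 12.4 ± 2.83 RPKM in beta cells (1.41-fold, limma adjusted p 6.2e-06). Of the DBHS proteins, which form dimers on Neat1, Pspc1 was 1.38-fold, Nono 1.27-fold and Sfpq 1.26-fold higher in alpha cells. The others called were Rbm14 (1.17-fold), Hnrnpk (1.16-fold), Dazap1 (1.14-fold) and Matr3 (1.08-fold).

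Across libraries the core paraspeckle genes split into those that ran with Neat1 and those that ran against it. Sfpq had r with Neat1 of 0.942 in alpha and 0.907 in beta cells, Tardbp 0.914 and 0.939, and Rbm14 0.860 and 0.908. Pspc1 (0.746 and 0.871), Dazap1 (0.590 and 0.713) and Hnrnph3 (0.672 and 0.661) were positive too. Against Neat1 ran Hnrnpk, known to favour the long Neat1 RNA by holding back polyadenylation of the short one (-0.872 in alpha, -0.873 in beta), the nuclear matrix protein gene Matr3 (-0.800 and -0.886) and Nono (-0.904 and -0.329). The median r with Neat1 over the list was 0.709 in alpha and 0.792 in beta cells, against -0.104 and -0.00397 over all genes, and with Malat1 it was 0.755 and 0.811, against -0.0881 and 9.3e-04.

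Rhythm calls among these proteins changed with single libraries. In alpha cells 3 of the 10 were called, against 9.66% of all genes, among them Sfpq (1.99-fold between peak and trough, peak at ZT18.5, limma adjusted p 0.019) and Nono, which peaked at ZT7.5 (1.32-fold, 0.011). In beta cells 2 were called, against 16% of all genes: Rbm14 (1.89-fold, ZT19.4, limma adjusted p 0.019) and Tardbp (1.59-fold, ZT18.1, 0.026). Leaving out 1 library gave 0 to 5 calls in alpha cells, with 0 without replicate 1 of alpha ZT8, and 0 to 4 in beta cells, with 0 without replicate 1 of beta ZT8. By limma 0 of the 10 differed in rhythm between the cell types after adjustment, against 0.0713% of all genes. At an unadjusted p under 0.05 there was 1, against 7.66% of all genes.

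Of 28 measured genes for other paraspeckle proteins, 17 were higher in alpha cells, against 4 in beta cells (all genes 37.8% and 37.2%), with a median log2 difference of 0.27. Hnrnpa1, an abundant splicing repressor, was 1.91-fold higher in alpha cells (25.4 ± 6.22 RPKM in alpha, 13.1 ± 2.57 RPKM in beta, limma adjusted p 3.2e-11), and Toe1, an RNA 3′-end exonuclease, was 1.30-fold higher in beta cells (limma adjusted p 4.6e-06). The median r with Neat1 was 0.237 in alpha and 0.230 in beta cells. Single members went far in either direction: Zfp335 had 0.947 and 0.974, Cpsf7, a cleavage factor, 0.937 and 0.876, while Zfp24 had -0.839 and -0.860. Cirbp, the cold-inducible RNA-binding protein whose level follows body temperature, was called rhythmic in both cell types with a peak at ZT8.5 in each, 2.42-fold in alpha and 2.22-fold in beta cells (limma adjusted p 2.3e-04 and 4.1e-04). Its peak fell where Neat1 and Malat1 were lowest, and its r with Neat1 was -0.599 in alpha and -0.604 in beta cells.

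Nuclear speckle proteins, among which Malat1 resides, mostly ran with it. Of 31 genes, 28 had a positive r with Malat1 in alpha and 30 in beta cells, with a median of 0.747 in alpha and 0.820 in beta cells. Of all 14027 genes, 6489 had a positive r with Malat1 in alpha and 7017 in beta cells. The list ran with Neat1 as well, with medians of 0.807 in alpha and 0.804 in beta cells. A positive r with Neat1 held for 27 of its genes in alpha and 30 in beta cells, against 6448 and 6987 of all genes. The relation was thus not particular to Malat1. Son, which organises the speckle, had r with Malat1 of 0.960 in alpha and 0.964 in beta cells, and Snrnp70 of the U1 snRNP had 0.857 and 0.976. Acin1 had 0.918 and 0.919, and the kinase gene Prpf4b 0.912 and 0.956. Dyrk3, a kinase that dissolves condensates, was the exception with a negative r in both cell types (-0.484 in alpha, -0.363 in beta). Between cell types 19 were higher in alpha cells, against 2 in beta cells (all genes 37.8% and 37.2%), with a median log2 difference of 0.24. The splicing kinase gene Clk1 was 1.78-fold higher in alpha cells (24.7 ± 6.99 RPKM in alpha, 13.9 ± 4.02 RPKM in beta, limma adjusted p 1.9e-04), and Dyrk3 was 2.33-fold higher in beta cells (3.29 ± 0.639 RPKM in alpha, 7.73 ± 1.02 RPKM in beta, limma adjusted p 9.3e-12). Called rhythmic in both cell types were Srrm2, the scaffold protein of the speckle (2.89-fold in alpha, 2.75-fold in beta, peaks at ZT19.8 and ZT19.1), Srsf1 (1.45-fold and 1.47-fold), Snrnp70 (2.17-fold and 2.12-fold) and Tra2a (2.37-fold and 2.32-fold), of 7 called in alpha and 6 in beta cells (all genes 9.66% and 16%). Leaving out 1 library gave 0 (without replicate 1 of alpha ZT8) to 13 (without replicate 1 of alpha ZT4) in alpha cells, and 2 (without replicate 2 of beta ZT4, replicate 1 of beta ZT8 or either library of beta ZT16) to 11 (without replicate 2 of beta ZT0) in beta cells. With time as 6 levels, 0 passed in alpha and 1 in beta cells.

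Of 15 genes that process or modify nuclear RNA, 7 were higher in alpha cells, against 1 in beta cells, where all genes had 37.8% and 37.2%. With totals without the hormone genes and the 2 RNAs, 12 were higher in alpha cells. Mettl16, a methyltransferase known to bind the Malat1 triple helix, had 4.26 ± 0.349 RPKM in alpha cells, against 2.97 ± 0.422 RPKM in beta cells (1.44-fold, limma adjusted p 1.8e-08). Elac2, which trims tRNA 3′ ends and the small RNA cut from Malat1, had 6.55 ± 0.756 RPKM in alpha cells, against 7.33 ± 0.971 RPKM in beta cells (1.12-fold higher in beta, limma adjusted p 0.017). It was the only call on the beta side. The list had 1 such call with any single library left out, but 0 to 1 under the other settings, so this call depended on the setting. Zc3h13, of the m6A writer complex, had r with Malat1 of 0.966 in alpha and 0.935 in beta cells, and Exosc10, the nuclear exosome nuclease, 0.953 and 0.877. The list's median r with Malat1 was 0.611 in alpha and 0.676 in beta cells.

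Among 29 measured of 42 other listed noncoding RNAs, those of the imprinted Dlk1-Dio3 region were among those that followed the 2 RNAs with r above 0.9. Meg3 had r with Malat1 of 0.950 in alpha and 0.970 in beta cells, Rian 0.943 and 0.947, and Mirg 0.925 and 0.944. Outside that region Firre had 0.910 and 0.988 and Ftx 0.958 and 0.935. Meg3 averaged 32.4 ± 22.9 RPKM in alpha cells, against 25.0 ± 18.8 RPKM in beta cells. Tug1 ran against Malat1 (-0.718 and -0.854), as did Snhg18 (-0.869 and -0.723), and Rpph1 and Rn7sk had r of -0.325 and -0.365 in alpha and -0.679 and -0.784 in beta cells. The mean log2 level of the list correlated with Malat1 at 0.897 in alpha and 0.922 in beta cells and with Neat1 at 0.911 and 0.910 (adjusted permutation p at most 6.4e-04; rho 0.832 to 0.902, r without 2 libraries 0.842 to 0.903, r within times 0.823 to 0.916), while the median r of its members with Malat1 was lower, 0.395 and 0.427.

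Between cell types 10 of these RNAs were higher in alpha cells, against 6 in beta cells, where all genes had 37.8% and 37.2%, so neither count stood above the share in the table. Pvt1, the neighbour of Myc, had 0.465 ± 0.0896 RPKM in alpha cells, against 0.0274 ± 0.0208 RPKM in beta cells (9.64-fold on the deposited scale, limma adjusted p 7.3e-14). Gas5, a snoRNA host gene, had 34 ± 3.52 RPKM in alpha cells, against 17.1 ± 2.05 RPKM in beta cells (1.99-fold, limma adjusted p 1.6e-12). Rmrp was 4.01-fold higher in beta cells (limma adjusted p 3.8e-11), and Snhg3 2.19-fold (limma adjusted p 3.6e-09). Called rhythmic in both cell types was Rian, with 1.75-fold in alpha and 1.60-fold in beta cells and peaks at ZT18.8 and ZT18.5 (limma adjusted p 0.012 and 0.021).

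**Figure D4:**
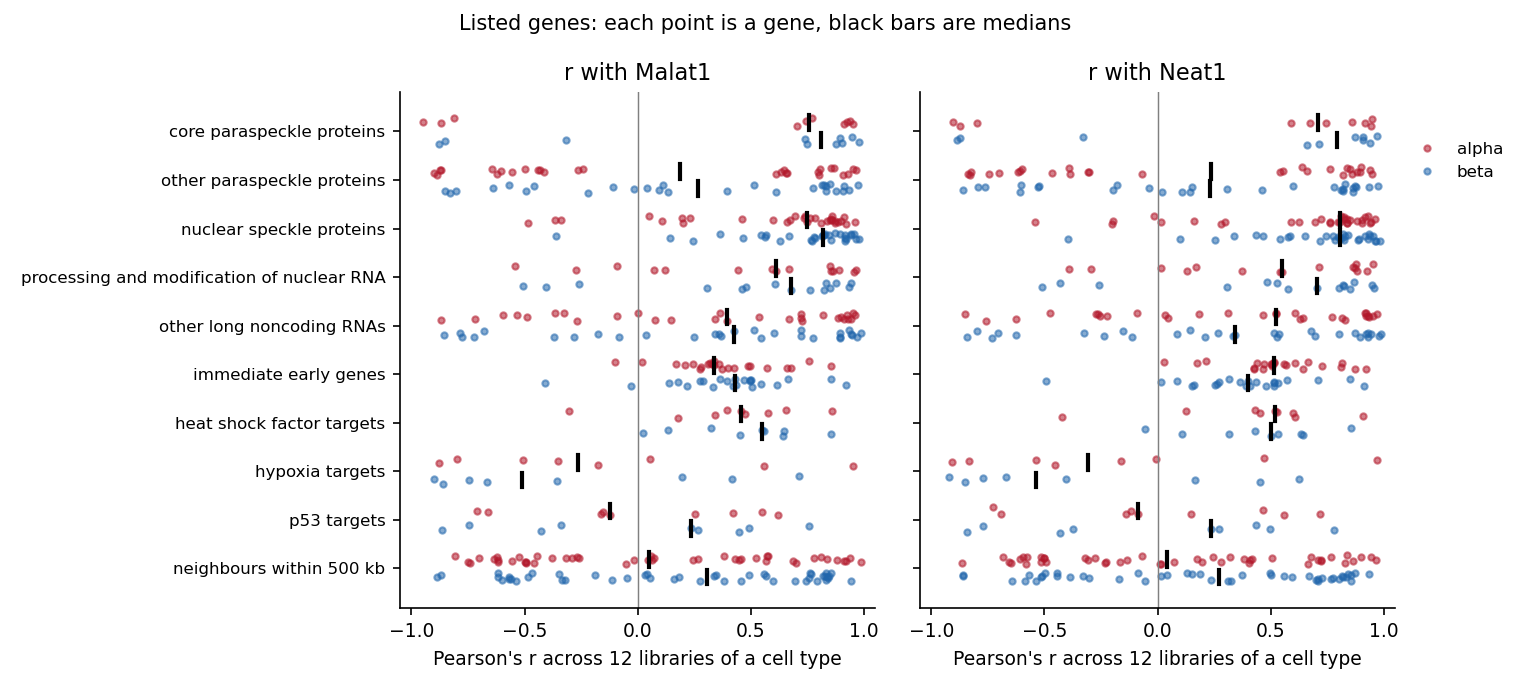
Pearson's r (x axis) of each listed gene (points) with Malat1 (left) and Neat1 (right) across the 12 libraries of alpha cells (red) and of beta cells (blue), by list (y axis); black bars are the list medians. Nuclear speckle genes lie mostly to the right, with medians of 0.747 to 0.820, whereas other paraspeckle proteins spread over both sides.

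Immediate early genes, which are induced within minutes of stimulation or cell handling, were mostly higher in alpha cells, the opposite direction to Neat1. Of 23 genes, 20 were higher in alpha cells by limma, against 0 in beta cells (0 also at an unadjusted p under 0.05). The shares of all genes were 37.8% and 37.2%. The median log2 difference was 1.29 for the list and 0.01 for all genes. Klf4 had 13.3 ± 5.99 RPKM in alpha cells, against 1.03 ± 0.613 RPKM in beta cells (12.8-fold, limma adjusted p 3.9e-11), and Zfp36, which destabilises mRNAs, was 4.64-fold higher (limma adjusted p 6.5e-08). For their mean log2 level, r with Malat1 was 0.445 in alpha and 0.575 in beta cells, and with Neat1 0.627 and 0.551, and none passed the permutation test after adjustment (adjusted p 0.21, 0.084, 0.051 and 0.11; unadjusted 0.15, 0.048, 0.028 and 0.062). In alpha cells this relation of the mean level rested on the 2 libraries farthest from the median, without which r was 0.0349 for Malat1 and -0.136 for Neat1. Within times r of the mean level was 0.611 in alpha and 0.733 in beta cells for Malat1, and 0.799 and 0.749 for Neat1. Gene by gene, r with Neat1 was positive for 23 of the 23 in alpha and 22 in beta cells, with medians of 0.512 and 0.399. With Malat1 it was positive for 22 and 21, with medians of 0.337 and 0.430. These r of single genes were not tested. Over all genes the median r was -0.104 and -0.00397 with Neat1, and -0.0881 and 9.3e-04 with Malat1. By limma 0 of the 23 were called rhythmic in either cell type, against 9.66% of all genes in alpha and 16% in beta cells. At an unadjusted p under 0.05 there was 1 in each cell type. Leaving out replicate 2 of beta ZT20 gave 1 called in beta cells.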

How the data were processed

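RNA was measured in 24 libraries of mouse alpha and beta cells. Per the labels' protocols, the kit was stranded and took total RNA depleted of ribosomal RNA; the submitters' processing notes name STAR, edgeR and mm10, without versions. Annotation, strand setting and gene filter: not given in the sources used here.

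Deposited values are log2; their steps show log2 RPKM with a prior count (mean 2.0) added by the authors. Whole reads and gene lengths were recovered for all 14027 genes (largest deviation from a whole number 8.1e-08, tolerance 0.001); RPKM means were computed from these reads without a prior count. For genes with few reads the prior count makes changes look smaller.

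Tests used the deposited values in limma 3.58.1 (R 4.3.3), with trend and robust estimation, adjusted over all 14027 genes and called at an adjusted p under 0.05. Cell types were compared with time as a factor of 6 levels. Rhythms were a 24 h cosine per cell type in one model, tested by the F-test of its 2 terms. Permutation tests were two-sided. Replicate numbers were not treated as pairs. The steps were tested on simulated reads. Alternatives changed the scale, filter, scaling, variance model, time model and libraries.

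Of the gene identifiers, 13802 matched GENCODE. Malat1, Neat1 and the lists were chosen with earlier results of these data known. Named genes were the 5 highest and 3 lowest r per RNA and cell type and the 5 highest lower r, with a mean log2 RPKM above 0, the core paraspeckle proteins, the 3 nearest genes on each side, the 5 most abundant noncoding RNAs and up to 4 called members per list and test; predicted genes were passed over, and other list members were named after their values were seen. A few genes and 1 marker list are not reported here.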

Additional observations from a re-analysis of the deposited data

How the results depend on the processing

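The level differences kept their direction and their side of the threshold under each alternative run for them: other scales, filter, scalings, variance model, replicate block, ZT8 to ZT20 alone (chosen after seeing the data) and each library left out. So did the ratio, for which another scale, the replicate block, ZT8 to ZT20 alone and each library left out were run. The difference of rhythm was not called under any setting run for it, which did not include ZT8 to ZT20 alone. Leaving out 1 library gave log2 differences of 0.52 to 0.70 for Malat1 and -1.49 to -1.21 for Neat1, a ratio difference of 1.87 to 2.08, r of 0.920 to 0.958 in alpha and 0.978 to 0.991 in beta cells, rhythm ranges for Malat1 of 0.85 to 1.22 in alpha and 1.03 to 1.5 in beta cells, and for Neat1 of 1.71 to 2.51 in alpha and 2.11 to 2.85 in beta cells. Neat1 in beta cells lost its rhythm call with time as 6 levels (2.54, limma adjusted p 0.22) and with each cell type fitted alone (2.44, limma adjusted p 0.071), and r as deviations from time means was 0.926 in alpha and 0.990 in beta cells with an exact p of 0.062; the cause was not tested.

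Counts of rhythmic genes depended on single libraries. Over all genes 1355 in alpha cells (9.66%) became 348 (without alpha ZT8 replicate 1) to 2252 (without alpha ZT4 replicate 1). In beta cells 2241 (16%) became 1077 (without beta ZT16 replicate 2) to 3100 (without beta ZT0 replicate 2). Among the genes of all lists together 28 became 3 to 45 in alpha cells and 29 became 10 to 49 in beta cells. With time as 6 levels the counts were 531 in alpha and 1212 in beta cells over all genes and 5 and 17 among listed genes; with each cell type alone, 894 and 7 in beta cells. Listed genes higher in beta cells numbered 41, where all genes had 5212 (37.2%). With totals without the hormone genes and the 2 RNAs they numbered 24, where all genes had 3950. The all-gene count moved by over 1.5 times in alpha cells without alpha ZT4 replicate 1, ZT20 replicate 1 or any library of ZT8, ZT12 or ZT16, and in beta cells without beta ZT4 replicate 2, ZT8 replicate 1 or either of ZT16. Of 1280 alternative counts of single lists, 186 moved by over 1.5 times.

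The labels do not say that a replicate number is shared by alpha and beta libraries. Over all genes the deviations of same-numbered libraries correlated at 0.647, 0.422, 0.338, 0.104, 0.186 and 0.0413 from ZT0 to ZT20, positive at each time but under 0.1 at ZT20, the level asked of every time here, so the numbers were not used as pairs. Across the 12 same-numbered alpha and beta libraries r was 0.874 for Malat1 (0.789 within times) and 0.930 for Neat1 (0.850 within times), and the difference had its direction in 12 of 12 such pairs for each RNA. A replicate block left the differences at 0.62 (limma adjusted p 5.0e-06) for Malat1 and -1.35 (7.5e-09) for Neat1, the ratio at 1.97 (exact p 4.9e-04) and the beta rhythm of Neat1 at 2.44 (limma adjusted p 0.044). No alternative was run for the spread between replicates, which needs both libraries of each time. Neat1 in alpha cells rests on as few as 171 reads in a library.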

Other observations

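Genes near Malat1 and Neat1 on chromosome 19 did not share their pattern as a group. Of 46 measured genes whose annotated span lies within 500 kb of either, 13 were higher in alpha cells, against 18 in beta cells, where all genes had 37.8% and 37.2%, and the median r with Malat1 was 0.0514 in alpha and 0.304 in beta cells. Among the nearest measured genes beyond the Malat1 end were Ltbp3, which codes for a binding protein of latent TGF-beta (log2 difference alpha minus beta 1.00, limma adjusted p 9.0e-09) and Sssca1 (0.36, limma adjusted p 1.5e-06). Beyond the start of Neat1 they were Frmd8 (0.52, limma adjusted p 1.4e-05), Tigd3 (0.52, limma adjusted p 0.014) and Dpf2 (-0.44, limma adjusted p 2.5e-08). Ltbp3 had r with Malat1 of 0.811 in alpha and 0.829 in beta cells, and Frmd8 0.576 and -0.468. Syvn1, the closest of all ranked genes to Malat1 in alpha cells, is also in this window, 243904 bases from it.

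Lists of genes that stress pathways are known to induce, which in other cells can raise Neat1, showed no common direction between the cell types. Of all genes, 37.8% were higher in alpha and 37.2% higher in beta cells. A positive r with Neat1 held for 2 of 8 hypoxia, 4 of 9 p53 and 8 of 9 heat shock factor targets in alpha cells. In beta cells it held for 3, 5 and 8 of them. Of all 14027 genes, 6448 had a positive r with Neat1 in alpha and 6987 in beta cells. Of 8 measured hypoxia targets, 3 were higher in alpha cells, against 4 in beta cells, with a median r with Neat1 of -0.308 in alpha and -0.537 in beta cells. Within that list Vegfa, which attracts blood vessels, ran with Neat1 (0.968 and 0.624) and was 1.54-fold higher in beta cells (61.8 ± 16.3 RPKM in alpha, 93.2 ± 15 RPKM in beta, limma adjusted p 3.9e-05), and Bnip3, a mitophagy receptor, ran against it (-0.831 and -0.920). Of 9 p53 targets, 4 were higher in alpha cells, against 3 in beta cells, with a median r with Neat1 of -0.0868 in alpha and 0.234 in beta cells; the alpha value was 0.158 with totals without the hormone genes and the 2 RNAs. Of 9 heat shock factor targets, 2 were higher in alpha cells, against 3 in beta cells, with a median r of 0.520 and 0.503; Hsph1, a chaperone, had 0.908 and 0.855 and was called rhythmic in both cell types with peaks at ZT19.4 and ZT19.1 (limma adjusted p 0.035 and 0.013).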
